A study of Homo sapiens with 6 samples.

Results

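The genes described here are the protein coding members of the human histone gene clusters, taken as all protein coding genes of the deposited annotation whose name starts with HIST1H, HIST2H, HIST3H or HIST4H. There were 71 such genes among 58735 in all, of which 6 encode histone H1, 17 H2A, 18 H2B, 15 H3 and 15 H4. Their RNA was measured by RNA-seq in 6 libraries from cells labelled CCRF-SB, a lymphoblast-like line from the blood of a patient with B cell acute lymphoblastic leukaemia. The 3 siANXA1 libraries came from cells that received a lentivirus with a silencing RNA against ANXA1, the gene of the phospholipid-binding protein annexin A1, and the 3 siControl libraries from cells with the empty vector. Cells of either group are labelled as day 5, grew in RPMI-1640 with fetal bovine serum, and differ in the labels by the vector and by the genotype entry, which is wild type for siControl. The protocol describes puromycin selection of stable cells, and the labels do not say whether a group is 1 clone or a pool of cells, or whether its replicates were separate cultures.

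Histones are the proteins around which nuclear DNA is wound. H2A, H2B, H3 and H4 form the core of the nucleosome, and H1, the linker histone, sits where DNA enters and leaves it. Most of the clustered genes are replication-dependent: dividing cells transcribe them in S phase, when new DNA needs packing, and their mRNA usually ends in a conserved stem-loop in place of a poly(A) tail. Some of the same genes also give longer polyadenylated mRNA, which is best known from cells that have stopped dividing or are differentiating. The labels name a TruSeq RNA kit and do not say whether RNA was selected by its poly(A) tail, so the level of a member cannot be divided here into tailed and untailed RNA. In bulk RNA a larger share of cells in S phase and more histone RNA per cell cannot be told apart.

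The stem-loop was searched in the transcripts of GENCODE release 29 on the human build GRCh38, because it shows which annotated forms of a histone gene reach the 3' end that replication-dependent mRNA has. The search took 16 bases on the transcript strand, a stem of 6 bases on either side of a loop of 4, with any base allowed at the fourth place of the stem, at its partner and at the last 2 places of the loop, and the letters shared by all forms below elsewhere. It was found in 44 of 100 member transcripts, which belong to 31 of the 71 members, and in 70 of all 206694 transcripts, or 0.0339%. The other 40 members had annotated transcripts without it. An annotated transcript may stop short of the end of the RNA, so the RNA of these genes may still carry the stem-loop. Among the 31 genes the stem-loop took 5 forms, given here 5' to 3' as DNA letters of the transcript strand, with the stem in capitals and the loop in lower case.
Form of 17 genes (6 H2A, 8 H2B, 3 H3): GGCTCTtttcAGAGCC
Form of 5 genes (3 H2B, 2 H3): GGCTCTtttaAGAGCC
Form of 5 genes, all H4: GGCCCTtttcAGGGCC
Form of 3 genes, all H4: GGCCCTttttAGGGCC
Form of HIST1H2AG alone: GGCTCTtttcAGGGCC
In 4 of the 5 forms the 2 sides of the stem are fully complementary, and the HIST1H2AG form is the exception. All 8 H4 genes with a stem-loop carried one of the forms that start GGCCCT, and the H2A, H2B and H3 genes carried those that start GGCTCT.

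Promoters of 61 of the 71 members were matched by symbol in RefSeq (GRCh38.p14). The 250 bases before the annotated start were searched on both strands for the TATA box (TATAAA), the CCAAT box (CCAAT), the octamer (ATTTGCAT) and the H1 box (AAACACA). The H1 box lay in 6 of 6 H1 promoters and in none of the 14 H2A, 18 H2B, 10 H3 and 13 H4 promoters, against 4.82% of all 35116 promoters. The octamer, which POU2F1 binds, lay in 11 of 14 H2A and 14 of 18 H2B promoters, in 1 of 10 H3 promoters and in no H1 or H4 promoter, against 1.63% of all promoters. That H3 promoter is the one listed for HIST1H3D, which RefSeq places at the same start as HIST1H2AD. The windows of some H2A and H2B genes overlap almost whole, as in HIST1H2AC and HIST1H2BC. The same match can thus count for both types, and their counts are not separate. CCAAT lay in every H1, H2A, H2B and H3 promoter and in 3 of 13 H4 promoters (32.0% of all promoters), and TATAAA in 40 of 61 members (10.7% of all). A TATAAA anywhere in the window was counted. In HIST1H2BC, HIST1H2BO and HIST1H2BE the only match stood 220, 214 and 189 bases before the start. A match of letters is a description and no evidence that a factor binds.

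The promoters below belong to the H1 gene with the highest level, the H1 gene that one of the count tests called, an abundant H2B gene, a gene of the H2A and H2B pair that share 1 promoter, and an H4 gene that holds none of the 4 motifs. They run 5' to 3' on the strand of the gene, and capitals mark the motifs on either strand. HIST1H1C lies at chr6:26056471-26056720 (minus strand), HIST1H1B at chr6:27867589-27867838 (minus strand), HIST1H2BK at chr6:27146859-27147108 (minus strand), HIST1H2AC at chr6:26123922-26124171 (plus strand) and HIST2H4A at chr1:149832407-149832656 (plus strand).
HIST1H1C: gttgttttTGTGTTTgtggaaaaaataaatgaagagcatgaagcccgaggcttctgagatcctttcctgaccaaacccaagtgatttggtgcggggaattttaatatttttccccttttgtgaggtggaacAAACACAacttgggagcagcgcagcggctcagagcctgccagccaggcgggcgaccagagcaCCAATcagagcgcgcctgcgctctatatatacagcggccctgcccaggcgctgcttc
HIST1H1B: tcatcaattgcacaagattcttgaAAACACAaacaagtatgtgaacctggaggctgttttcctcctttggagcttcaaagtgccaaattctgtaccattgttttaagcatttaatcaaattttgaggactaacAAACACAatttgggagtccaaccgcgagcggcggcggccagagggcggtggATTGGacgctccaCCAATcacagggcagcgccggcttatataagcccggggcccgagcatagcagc
HIST1H2BK: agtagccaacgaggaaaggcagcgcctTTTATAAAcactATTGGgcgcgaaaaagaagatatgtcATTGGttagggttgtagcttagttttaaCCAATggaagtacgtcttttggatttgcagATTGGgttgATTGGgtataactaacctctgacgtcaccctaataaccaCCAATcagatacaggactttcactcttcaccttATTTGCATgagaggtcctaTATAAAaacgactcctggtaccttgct
HIST1H2AC: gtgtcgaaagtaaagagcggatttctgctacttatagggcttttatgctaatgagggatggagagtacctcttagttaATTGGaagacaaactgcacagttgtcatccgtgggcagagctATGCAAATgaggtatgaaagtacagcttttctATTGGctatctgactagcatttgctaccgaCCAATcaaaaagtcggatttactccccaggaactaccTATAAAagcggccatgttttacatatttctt
HIST2H4A: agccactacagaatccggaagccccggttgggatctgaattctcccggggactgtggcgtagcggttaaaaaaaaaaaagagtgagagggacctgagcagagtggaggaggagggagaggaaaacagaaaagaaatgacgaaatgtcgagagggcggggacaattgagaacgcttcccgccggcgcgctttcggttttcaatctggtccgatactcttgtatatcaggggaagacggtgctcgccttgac
In HIST1H1C the first base of the H1 box stands 119 bases before the start, with a second, inverted copy 242 bases before it, and CCAAT stands at 57 bases. HIST1H1B likewise holds the H1 box 117 and 226 bases before its start. The window of HIST1H2AC, read from the other strand, is all but 5 bases of the promoter of HIST1H2BC.

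Total counts lay between 25657804 in siANXA1 2 and 53661293 in siANXA1 1, and between 41913392 and 49778490 in siControl. ANXA1, on chromosome 9, stood at 1606, 1723 and 1712 CPM (counts relative to library size, with TMM scaling between libraries) in siANXA1 1 to 3, against 3696, 3696 and 3756 CPM in siControl 1 to 3. The groups did not overlap and 45.2% of the level remained; the adjusted p was 0.0571 by edgeR's quasi-likelihood test, outside the threshold of 0.05, and 2.54e-07 by DESeq2. The first principal component of all genes (39.9% of the variance) did not separate the groups: siANXA1 2 lay with siControl 1 and 2, and siControl 3 with siANXA1 1 and 3. On the second component (23.3%) siANXA1 2 stood apart at 89.9, against -41.9 and -33.8 for siControl 1 and 2. Markers went against the label of a B cell line: 15 of 22 B cell markers stayed under 1 CPM in every library, with VPREB1, IGLL1, DNTT and IGHM at 0, and their sum was 17.5 to 25.2 CPM in siANXA1 and 20.8 to 38.8 CPM in siControl. The sum of 20 erythroid markers was 6827 to 8385 CPM in siANXA1 and 2994 to 4474 CPM in siControl, and 2 of the 20 stayed under 1 CPM in every library. Much of the gap lay in HBE1, at 3286, 2140 and 2973 CPM in siANXA1 1 to 3 and 4.74, 637 and 9.82 CPM in siControl 1 to 3. The cells are therefore called by their group names only, and the part of these markers in the histone results was not tested.

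Of the 71 members, 3 had no count in any library (HIST1H2AA, HIST1H2BA and HIST1H4F), 42 had a mean of 1 CPM or more, and 30 a mean of 5 CPM or more. The members took 0.325%, 0.400% and 0.317% of all counts with a gene in siANXA1 1 to 3, against 0.297%, 0.284% and 0.225% in siControl 1 to 3. The 55 genes of the large cluster on chromosome 6, HIST1, held 82.5% to 87.1% of the member counts in the 6 libraries, and the 12 HIST2 genes on chromosome 1 held 11.1% to 14.8%. The 3 HIST3 genes held 1.60% to 2.83%. HIST4H4, the only member on chromosome 12, had 3 counts, all in siANXA1 3. Most of the signal came from very few genes: HIST1H1C and HIST1H2BK together held 58.4% to 64.2% of the member counts.

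Between genes, levels are compared per transcript length, as TPM, in which counts are divided by transcript length and scaled to the same total in each library. HIST1H1C averaged 3837 ± 554 TPM in siANXA1 and 2807 ± 266 TPM in siControl (SD, n = 3 each), and HIST1H2BK 3538 ± 150 TPM in siANXA1 and 2841 ± 76.3 TPM in siControl. These 2 do not differ beyond their spread. The next gene, HIST2H2AA3, was far below at 284 ± 45.2 TPM in siANXA1 and 206 ± 11.99 TPM in siControl, followed closely by its near copy HIST2H2AA4 and by HIST1H2AC at 240 ± 62.4 TPM in siANXA1 and 148 ± 17.8 TPM in siControl. The most abundant H3 and H4 genes, HIST1H3H and HIST1H4H, had 169 ± 66.1 and 173 ± 12.8 TPM in siANXA1 and 148 ± 31.7 and 140 ± 32.2 TPM in siControl. Summed over genes, the 4 core types were thus unequal in TPM. H2B had 4237 ± 55.7 TPM in siANXA1 and 3411 ± 130 TPM in siControl. H2A had 1142 ± 262 TPM in siANXA1 and 918 ± 116 TPM in siControl. H4 had 369 ± 22.2 TPM in siANXA1 and 304 ± 107 TPM in siControl. H3 had 289 ± 55.7 TPM in siANXA1 and 248 ± 42.3 TPM in siControl. TPM rests on the annotated lengths, such as 381 bases for HIST1H2BK and 1237 bases for HIST1H3H. Where these differ from the RNA, TPM shifts, and how far this sets the order of the types was not tested.

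The summed RNA of all members was 3305, 3899 and 3210 CPM in siANXA1 1 to 3, against 2915, 2792 and 2338 CPM in siControl 1 to 3. Every siANXA1 library lay above every siControl library, with means of 3471 ± 374 and 2681 ± 304 CPM (SD, n = 3 each) and a log2 ratio of 0.37. By type, the groups did not overlap for H1, H2A and H2B and overlapped for H3 and H4. H1 genes summed to 1335, 1594 and 1252 CPM in siANXA1, against 1108, 1060 and 915 CPM in siControl, a log2 ratio of 0.44. H2A genes summed to 434, 620 and 449 CPM in siANXA1, against 418, 408 and 333 CPM in siControl, a log2 ratio of 0.38 that was 0.19 without siANXA1 2 and 0.19 without HIST1H2AC.

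H2B was the tightest type, at 1232, 1264 and 1195 CPM in siANXA1 against 1019, 1007 and 904 CPM in siControl (log2 ratio 0.33). H3 genes summed to 135, 208 and 133 CPM in siANXA1, against 156, 153 and 108 CPM in siControl. Their log2 ratio of 0.19 was -0.05 without siANXA1 2, the library that held the highest value, and 0.04 without siControl 3, the lowest. H4 genes summed to 168, 213 and 181 CPM in siANXA1, against 213, 165 and 78.3 CPM in siControl. Here siControl 3 stood far below the rest, and without it the log2 ratio of 0.30 was -0.01, while without siControl 1 it was 0.62. These sums are descriptions, and no test was run on them.

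**Figure D1:**
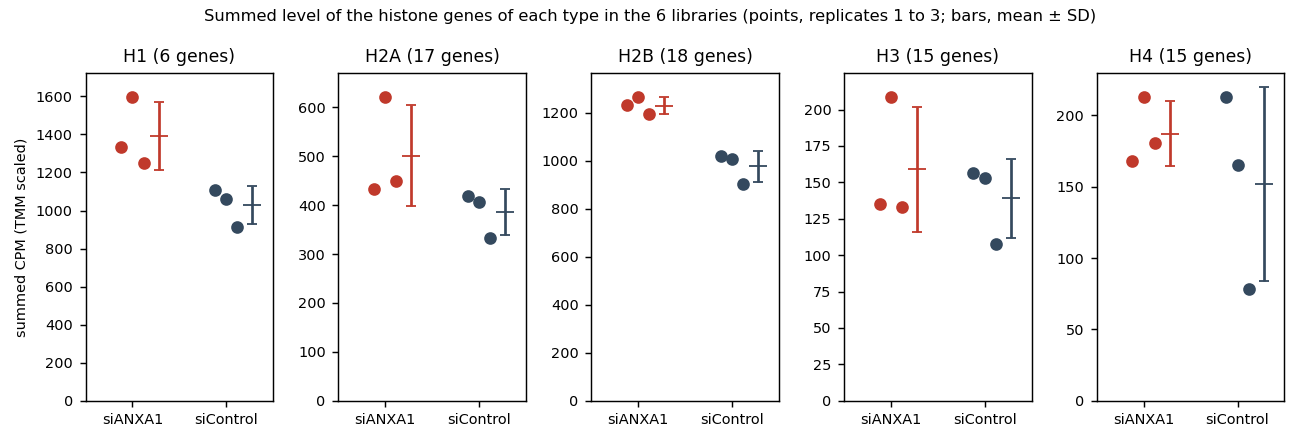
Summed level of the histone genes of each type in CPM (vertical axes, each from 0) in siANXA1 (left) and siControl (right). Points are libraries 1 to 3 from left to right and bars give mean ± SD; the groups are apart for H1, H2A and H2B, while for H4 siControl 3 lies at 78.3 CPM, below the other 5 libraries.

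Gene by gene, 51 members had enough counts to be tested together with all 17947 genes that passed the filter. No member was called by edgeR's quasi-likelihood test at an adjusted p of 0.05. Over all genes it called 2 (0.0111%), both higher in siANXA1. In simulated data the same test found only 3 of 67 genes made to differ 2-fold, so most differences of that size would be missed. At an unadjusted p under 0.05, 10 members were higher in siANXA1 and 0 lower, against 3.4% and 4.52% of all genes tested. The near copies HIST2H2AA3 and HIST2H2AA4 are both among the 10. DESeq2 called 1 member, HIST1H1B, higher (0.475% of all genes) and 0 lower (0.594%). Run only on the genes that passed the edgeR filter, DESeq2 called 2 members higher, HIST1H1B and HIST1H3D (0.77% of all genes). The log2 fold change was positive for 38 members and negative for 13, with a median of 0.40, whereas 50.5% of all genes had a positive one and their median was 0.0066. Without siANXA1 2 the members' median was 0.25. Over all 68 members with a count, the siANXA1 mean was above the siControl mean for 45 (66.2%, against 48.7% of all genes with a count), and the median log2 ratio of the means was 0.16, against -0.0042 for all genes.

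In 13 of the 51 tested members every siANXA1 library was above every siControl library, against 7.41% of all genes tested; for 0 members every siANXA1 library was below every siControl library, against 7.24%. The filter on low counts favours genes that are high in at least 1 group, so the same was counted at fixed levels. Among the 42 members with a mean of 1 CPM or more, the groups were apart and higher in siANXA1 for 11 (26.2%), against 7.56% of all genes at that level. Of the 30 members with a mean of 5 CPM or more it was 9, against 7.91%. With every gene that had a count, it was 13 of 68 (19.1%), against 4.85%, and 2 members (2.94%) were apart and lower, against 5.43%. By type the 13 were 2 H1, 5 H2A, 4 H2B, 1 H3 and 1 H4 genes. They hold both HIST2H2AA3 and HIST2H2AA4, near copies best read as 1 measurement, as do the counts at 1 and 5 CPM. HIST1H2AD and HIST1H3D, also among the 13, each share most of their sequence with the gene AL031777.3. The members counted are therefore not all separate measurements. Leaving out any 1 library, which makes groups come apart more often, gave 14 to 18 such members, against 9.67% to 20.0% of all genes. Without siControl 3, 18 of 52 tested members were apart and higher in siANXA1 and 6 apart and lower, against 20.0% and 23.0% of all genes. Without siANXA1 2, 15 of 51 were apart and higher and 2 lower, against 17.2% and 16.9%.

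**Figure D2:**
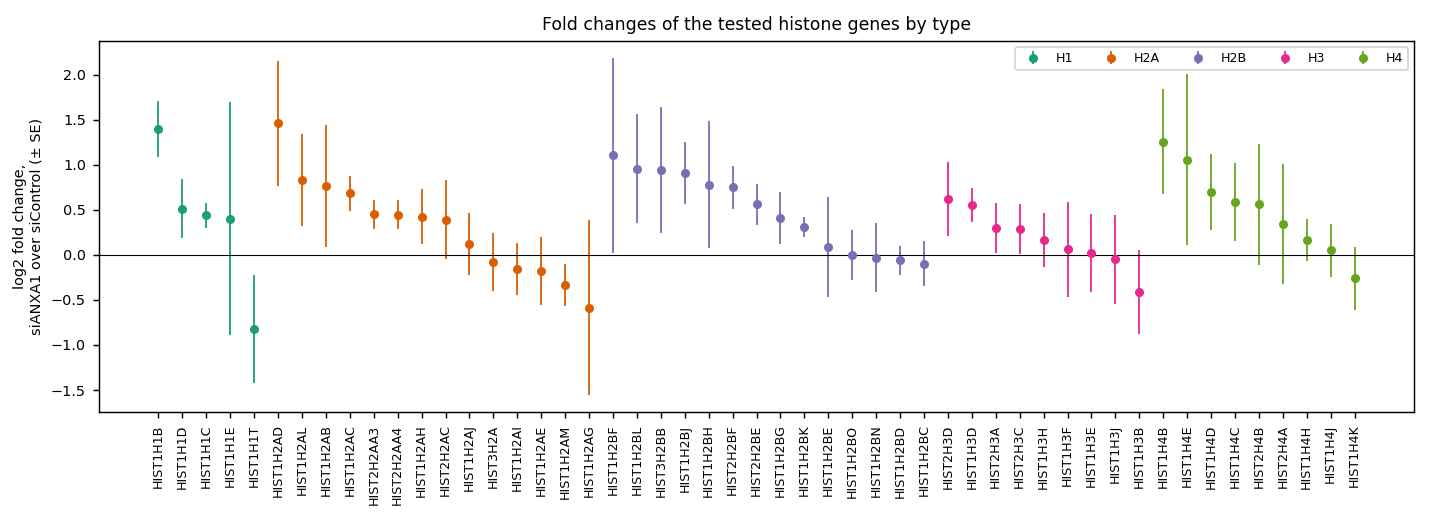
Log2 fold change of the 51 tested histone genes, siANXA1 over siControl (vertical axis, points with SE), grouped by type and ordered by size within each type. Of the points, 38 lie above 0 and 13 below, and none was called by edgeR.

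Of the linker histone genes, 1 was abundant and 5 were minor. HIST1H1C (chr6:26055787-26056428, minus strand) held 99.0% of the summed H1 CPM and stood at 1320, 1573 and 1246 CPM in siANXA1, against 1093, 1055 and 905 CPM in siControl. The groups did not overlap, and siANXA1 2 was highest and siControl 3 lowest. Its log2 fold change was 0.44 ± 0.14 (SE; edgeR adjusted p = 0.605, unadjusted 0.0179). HIST1H1B (chr6:27866849-27867529, minus strand) was far less abundant (7.06 ± 1.10 TPM in siANXA1, 2.67 ± 0.492 TPM in siControl). It had 2.55, 2.38 and 3.17 CPM in siANXA1 against 0.814, 1.09 and 1.17 CPM in siControl. Its log2 fold change of 1.40 ± 0.31 was the only one among the members that DESeq2 called (adjusted p = 0.0268), whereas edgeR gave an adjusted p of 0.574; over the settings tried, its adjusted p ran from 0.0044, with DESeq2 on the genes that passed the edgeR filter, to 0.999 when siControl 1 was left out.

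HIST1H1D averaged 2.78 ± 0.824 CPM in siANXA1 and 1.94 ± 0.0743 CPM in siControl, with siANXA1 3 the lowest of all 6 libraries at 1.83 CPM. HIST1H1E showed no order by group, at 9.02, 14.7 and 0.437 CPM in siANXA1 and 11.6, 0.571 and 6.05 CPM in siControl. A library under 1 CPM thus stood beside libraries above 5 CPM in either group. The testis-type gene HIST1H1T averaged 0.435 CPM in siANXA1 and 0.775 CPM in siControl, and HIST1H1A stayed near 0.

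Among H2A genes, HIST1H2AC (chr6:26124145-26139116, plus strand) had the highest CPM, with 183, 258 and 179 CPM in siANXA1, against 130, 142 and 114 CPM in siControl. All 3 siANXA1 libraries were above siControl, for a log2 fold change of 0.68 ± 0.19 (edgeR adjusted p = 0.605). HIST2H2AA3 and HIST2H2AA4, a pair of near-identical neighbours on chromosome 1, ran in parallel: HIST2H2AA3 had 78.3, 101 and 82.9 CPM in siANXA1 against 68.3, 62.4 and 60.9 CPM in siControl, and HIST2H2AA4 had 77.1, 100 and 81.8 CPM in siANXA1 against 68.1, 62.4 and 59.8 CPM in siControl. The log2 fold changes were 0.45 ± 0.16 for either gene (edgeR adjusted p = 0.625 and 0.627). Every window of 75 bases in HIST2H2AA3 also occurs in HIST2H2AA4, so the 2 are best read as 1 measurement of both.

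The other H2A genes above 5 CPM showed no such order. HIST3H2A, from the small HIST3 cluster on chromosome 1, had 45.3, 79.0 and 49.6 CPM in siANXA1 and 74.5, 69.3 and 40.3 CPM in siControl. HIST1H2AI had 24.7, 42.7 and 25.6 CPM in siANXA1 and 40.5, 36.0 and 27.0 CPM in siControl, and HIST1H2AE 12.6, 24.0 and 13.7 CPM in siANXA1 and 21.8, 23.5 and 11.6 CPM in siControl. In all 3, siANXA1 2 sat with siControl 1 and 2 at the high values, and siControl 3 with siANXA1 1 and 3 at the low ones, which is the split of the first principal component. HIST1H2AM averaged 5.19 ± 0.418 CPM in siANXA1 and 6.55 ± 0.880 CPM in siControl (log2 fold change -0.34 ± 0.23, edgeR adjusted p = 0.716), with the groups overlapping by siANXA1 2 alone.

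HIST1H2BK (chr6:27146418-27146798, minus strand), the most abundant H2B gene with 62.0% of the summed H2B CPM, had 803, 702 and 765 CPM in siANXA1, against 629, 612 and 592 CPM in siControl. The libraries of each group were close together and the groups did not overlap, for a log2 fold change of 0.31 ± 0.11 (edgeR adjusted p = 0.625). HIST2H2BE (chr1:149884459-149886652, minus strand) had 126, 205 and 132 CPM in siANXA1, against 111, 112 and 91.0 CPM in siControl (log2 fold change 0.56 ± 0.23, edgeR adjusted p = 0.627). There, siANXA1 2 was well above all others, and the remaining siANXA1 libraries were only slightly above siControl.

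HIST2H2BF (chr1:149782689-149812373, minus strand) had 30.2, 21.3 and 35.2 CPM in siANXA1, against 17.6, 18.2 and 15.7 CPM in siControl. Its log2 fold change was 0.75 ± 0.24 (edgeR adjusted p = 0.605), and here siANXA1 2 was the lowest of its group. HIST1H2BJ (chr6:27125897-27132750, minus strand) showed the same order, with 30.9, 24.2 and 29.9 CPM in siANXA1 against 11.6, 10.6 and 23.0 CPM in siControl (log2 fold change 0.91 ± 0.34, edgeR adjusted p = 0.627). The lowest siANXA1 library was only just above siControl 3.

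HIST1H2BH had 25.8, 8.77 and 22.1 CPM in siANXA1 and 5.27, 5.23 and 22.6 CPM in siControl. This gene followed the split of the libraries on the first principal component in the direction opposite to HIST1H2AE: siControl 3 stood with siANXA1 1 and 3 at the high end. HIST1H2BG averaged 83.9 ± 19.9 CPM in siANXA1 and 63.4 ± 18.7 CPM in siControl, and HIST3H2BB 12.3 ± 10.5 CPM in siANXA1 and 6.35 ± 3.30 CPM in siControl. For HIST3H2BB the value of 24.3 CPM in siANXA1 2 carried the difference, and without that library the log2 fold change of 0.95 was -0.02. HIST1H2BC, HIST1H2BD, HIST1H2BN and HIST1H2BO had nearly equal means: 51.6 CPM in siANXA1 and 55.1 CPM in siControl for HIST1H2BC, and 46.7 CPM in siANXA1 and 48.7 CPM in siControl for HIST1H2BD. HIST1H2BN stood at 28.6 CPM in siANXA1 and 29.2 CPM in siControl, and HIST1H2BO at 9.55 CPM in siANXA1 and 9.58 CPM in siControl.

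**Figure D3:**
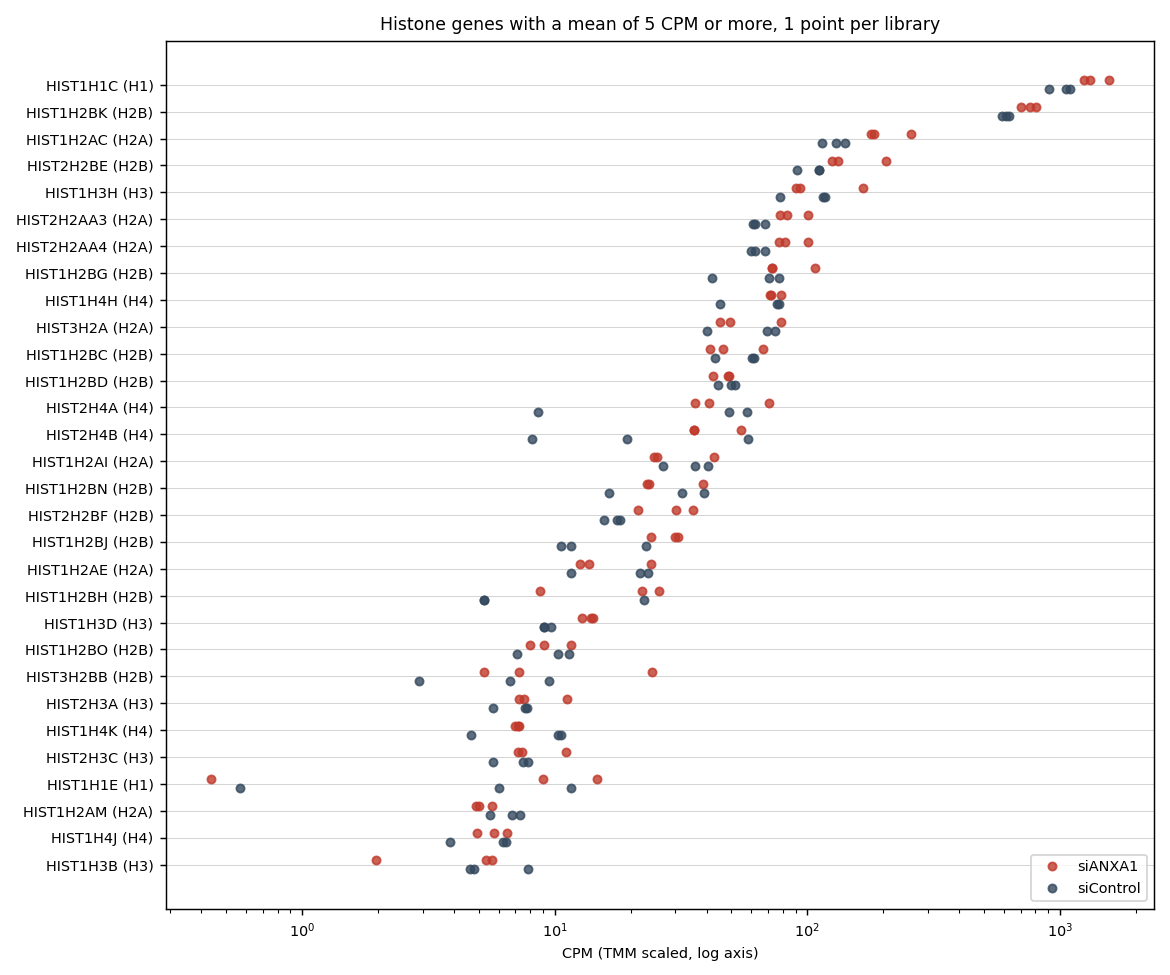
CPM of the 30 histone genes with a mean of 5 CPM or more (horizontal log axis), 1 point per library, with siANXA1 above siControl within each gene and genes in order of mean CPM. The siANXA1 points of HIST1H1C, HIST1H2BK, HIST1H2AC and HIST2H2BF all lie to the right of their siControl points, while those of HIST1H1E and HIST1H2BH are mixed.

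H3 RNA came mainly from HIST1H3H (chr6:27810064-27811300, plus strand), with 73.9% of the summed H3 CPM. It had 93.3, 166 and 90.3 CPM in siANXA1 and 115, 118 and 77.9 CPM in siControl, so the groups overlapped and siANXA1 2 alone was above all siControl libraries. The log2 fold change of 0.17 ± 0.30 (edgeR adjusted p = 0.873) was -0.17 without siANXA1 2. HIST1H3D (chr6:26196840-26197250, minus strand) was the tested H3 gene whose groups did not overlap, at 14.1, 12.8 and 14.0 CPM in siANXA1 against 9.72, 9.08 and 9.10 CPM in siControl. Its replicates were the closest together of all H3 genes above 5 CPM, and its log2 fold change was 0.55 ± 0.19 (edgeR adjusted p = 0.617, DESeq2 adjusted p = 0.296). Over the settings tried the adjusted p ran from 0.0485, with DESeq2 on the genes that passed the edgeR filter, to 0.999 without siControl 1. All of its sequence also lies in the overlapping gene AL031777.3, at 9.76, 11.1 and 11.8 CPM in siANXA1 and 9.53, 6.80 and 10.7 CPM in siControl, so the division of reads between these genes is uncertain.

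HIST2H3A and HIST2H3C, which encode the same protein from a duplicated segment of chromosome 1, had nearly equal estimates: 8.66 ± 2.24 CPM in siANXA1 and 7.04 ± 1.17 CPM in siControl for HIST2H3A, and 8.58 ± 2.22 CPM in siANXA1 and 7.02 ± 1.16 CPM in siControl for HIST2H3C. HIST1H3B averaged 4.32 ± 2.04 CPM in siANXA1 and 5.77 ± 1.83 CPM in siControl (log2 fold change -0.41 ± 0.46, edgeR adjusted p = 0.803). HIST1H3A, with too few counts to be tested, averaged 0.0961 CPM in siANXA1 and 0.177 CPM in siControl, with the groups apart. The remaining H3 genes were at or below a few CPM, the highest of them HIST2H3D at 3.18 ± 1.10 CPM in siANXA1 and 2.07 ± 0.696 CPM in siControl.

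H4 genes, which with few exceptions encode 1 and the same protein, varied most between libraries. HIST1H4H (chr6:26277609-26285638, minus strand) had 71.6, 71.9 and 78.5 CPM in siANXA1 and 77.0, 75.7 and 45.2 CPM in siControl. Only siControl 3 differed from the rest, and the log2 fold change of 0.17 ± 0.23 (edgeR adjusted p = 0.837) was -0.05 without it. HIST2H4A (chr1:149832659-149839767, plus strand) had 35.9, 70.3 and 40.9 CPM in siANXA1 and 58.0, 49.0 and 8.63 CPM in siControl, and its copy HIST2H4B had 35.5, 54.8 and 35.8 CPM in siANXA1 and 58.0, 19.3 and 8.15 CPM in siControl. In either gene siControl 1 lay above siANXA1 1 and 3, and siControl 3 far below all siANXA1 libraries. The log2 fold changes of 0.35 ± 0.67 and 0.56 ± 0.67 were smaller than their errors. The main transcript of HIST2H4A held 85.9% of its counts, and that of HIST2H4B 99.3%. Both are annotated as nonsense-mediated decay and not as protein coding. In siControl 1 to 3 they had 47.3, 47.5 and 7.91 CPM (HIST2H4A) and 57.9, 19.1 and 7.91 CPM (HIST2H4B). The low siControl 3 values thus lay in these forms. The transcript of HIST1H4H with most counts, 41.5%, is of that class too. What these forms encode was not tested.

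HIST1H4E had 8.72, 0.776 and 10.1 CPM in siANXA1 and 1.20, 2.56 and 5.72 CPM in siControl, with siANXA1 2 lowest of all 6 libraries. HIST1H4K averaged 7.13 ± 0.163 CPM in siANXA1 and 8.54 ± 3.35 CPM in siControl, and HIST1H4J 5.72 ± 0.767 CPM in siANXA1 and 5.52 ± 1.44 CPM in siControl. HIST1H4B, at 0.390 ± 0.137 CPM in siANXA1 and 0.160 ± 0.0766 CPM in siControl, was the tested H4 gene whose groups did not overlap, at a level of few reads. HIST1H4G, which had too few counts to be tested, was at 0 in the 3 siANXA1 libraries and averaged 0.0362 CPM in siControl.

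Members of 1 to 5 CPM not given above were HIST1H2BF, HIST1H2AG, HIST1H3E, HIST1H2AJ, HIST1H2BE, HIST1H2BL, HIST1H2AL and HIST1H2AH. HIST1H2BF was the most uneven of them, at 5.06, 0.822 and 13.4 CPM in siANXA1 and 0.981, 6.52 and 1.44 CPM in siControl. HIST1H2AH, at 1.31, 1.19 and 1.53 CPM in siANXA1 against 0.838, 1.07 and 1.11 CPM in siControl, was the 1 gene among the 8 whose groups did not overlap. None of the 8 had an edgeR adjusted p below that of HIST1H1B.

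The libraries differed among themselves as well as by group. Over the 51 tested members, siANXA1 2 was the highest of the 6 libraries for 23 genes, and siControl 3 the lowest for 26. The median deviation of the members from their own mean was 0.29 on the log2 scale in siANXA1 2, 0.07 in siANXA1 1 and 0.07 in siANXA1 3, against 0.02 in siControl 1, -0.08 in siControl 2 and -0.36 in siControl 3. These 2 libraries lie on opposite sides of the first principal component, each with libraries of the other group. On the second component siANXA1 2 lies far from siControl 1 and 2, so libraries on 1 side are not alike in all respects. Within the sides, all members summed to 3899 CPM in siANXA1 2 against 2915 and 2792 CPM in siControl 1 and 2, and to 3305 and 3210 CPM in siANXA1 1 and 3 against 2338 CPM in siControl 3. With the side as a term in edgeR, added after the data were seen, no member was called in either direction (0.0223% of all genes were called higher and 0.00557% lower) and the median log2 fold change of the members was 0.41.

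**Figure D4:**
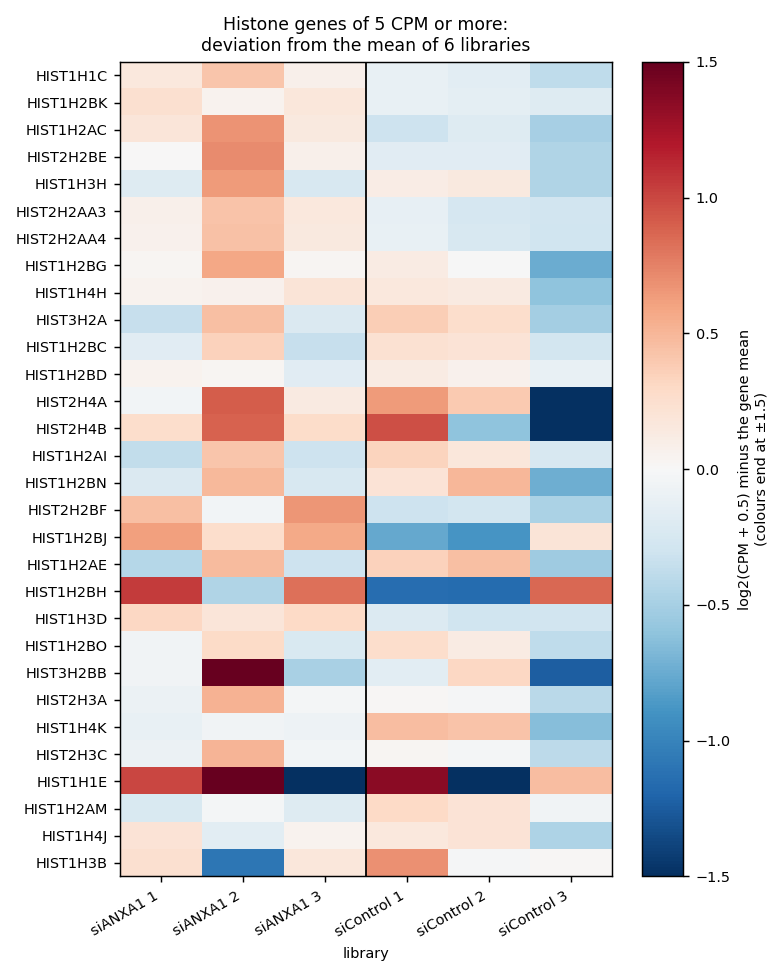
Deviation of log2(CPM + 0.5) from the mean of the 6 libraries for each of the 30 histone genes of 5 CPM or more (rows, by mean CPM), with siANXA1 1 to 3 left of the line and siControl 1 to 3 right of it; red is above and blue below the mean. The column of siANXA1 2 is mostly red and that of siControl 3 mostly blue, with HIST1H2BH the other way round.

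Many H2A and H2B genes lie head to head, so that 1 stretch of DNA serves as the promoter of both. By annotated span, 11 pairs of an H2A and an H2B gene started within 1000 bases of each other on opposite strands. HIST1H2AK and HIST1H2BN, whose RefSeq promoters overlap on opposite strands, are not among the 11, because their annotated spans overlap. Of the 11 pairs, 9 had both genes tested. In 4 of these 9 the log2 fold changes had the same sign. By the outer end of its annotated span, an H3 gene, HIST1H3J, also starts near HIST1H2BO, which is paired with HIST1H2AM as well. The coding transcript of HIST1H3J has only 411 bases and held 97.3% of its counts. That distance may therefore not be the distance for the RNA measured. The pair HIST1H2BC and HIST1H2AC, 219 bases apart, had means of 51.6 CPM in siANXA1 and 55.1 CPM in siControl for HIST1H2BC (log2 fold change -0.10 ± 0.25) but 207 CPM in siANXA1 and 129 CPM in siControl for HIST1H2AC (0.68 ± 0.19). HIST1H2BK, with 3538 ± 150 TPM in siANXA1 and 2841 ± 76.3 TPM in siControl, lies 331 bases from HIST1H2AH, with 6.18 ± 0.790 TPM in siANXA1 and 4.60 ± 0.678 TPM in siControl. HIST2H2BE, with 126 ± 39.1 TPM in siANXA1 and 84.4 ± 9.23 TPM in siControl, lies 323 bases from HIST2H2AC, with 4.42 ± 1.59 TPM in siANXA1 and 3.31 ± 1.12 TPM in siControl. Per transcript length, the genes of these 2 pairs differed far beyond their spread.

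**Figure D5:**
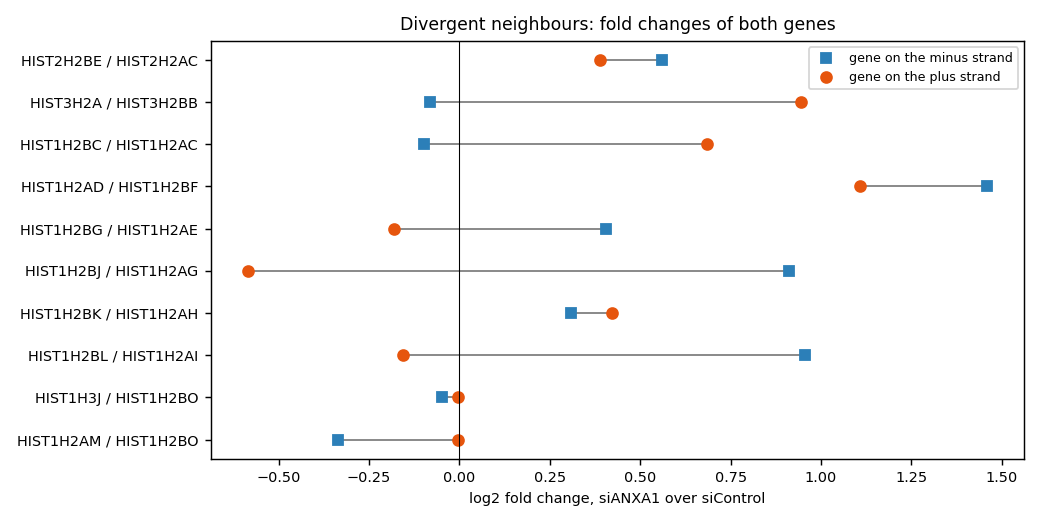
Log2 fold changes, siANXA1 over siControl (horizontal axis), of the genes of the 10 divergent pairs in which both were tested; squares are genes on the minus strand and circles genes on the plus strand, joined by a line. The 9 H2A and H2B pairs are shown, with HIST1H3J and HIST1H2BO, a pair by annotated span only. In 5 of the 10 both marks lie on the same side of 0.

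The annotated transcript forms give a view of which forms the counts were assigned to, and not of the 3' ends of the RNA itself. Of the 44 member transcripts with the stem-loop, 32 run on for 100 bases or more beyond it, and 20 of these have a poly(A) signal (AATAAA or ATTAAA) in their last 60 bases. HIST2H2BE is an example: its transcript of 2194 bases has the stem-loop at base 450 and runs 1729 bases past it, with a poly(A) signal 24 bases before the end. HIST1H3H runs 769 bases past its stem-loop, HIST2H2BF 1479 and HIST1H2BH 1640. Such long forms held 19.6%, 22.8% and 21.1% of the member counts in siANXA1 1 to 3 and 22.1%, 21.5% and 18.5% in siControl 1 to 3. Forms that end less than 100 bases past the stem-loop held 7.06%, 7.84% and 7.52% in siANXA1 and 8.06%, 7.81% and 7.81% in siControl. The rest, 69.4% to 73.3% in siANXA1 and 69.9% to 73.7% in siControl, fell on transcripts annotated without the stem-loop. HIST1H1C and HIST1H2BK were among them, with annotated transcripts of only 642 and 381 bases. So were longer forms that end with a poly(A) signal, such as the main transcripts of HIST1H2BC (659 bases), HIST1H2BD (789 bases) and HIST1H2BN (4137 bases). This class therefore mixes short and longer forms. A transcript that is annotated without the stem-loop does not show that the RNA lacked it. The shares of the groups overlapped in all 3 classes.

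Near-identical copies limit what can be said of single genes. Of the 71 members, 41 shared no window of 75 bases with a transcript of another gene, and 10 shared more than 90% of theirs. HIST1H1C, HIST1H1B, HIST1H2AC, HIST1H2BG, HIST1H3H and HIST1H4H were among those with none. HIST1H2BK shared 50.5% of its windows, most of them with genes named H2BFS, whose counts were 1.01 to 3.11 CPM in siANXA1 and 1.26 to 2.75 CPM in siControl. HIST2H3A and HIST2H3C shared 100% of theirs, HIST2H4A 96.2% and HIST2H4B 97.1%, and HIST1H4K 100% with HIST1H4J.

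Other genes of histone supply showed no change past the edgeR threshold in either direction. The 9 tested replication-independent histone variants, which are also made outside S phase and do not lie in the clusters, had 4 positive and 5 negative log2 fold changes with a median of -0.01. H2AFZ, the variant with the highest CPM, had 845, 488 and 567 CPM in siANXA1 and 598, 572 and 567 CPM in siControl; the genes of replacement H3, H3F3B and H3F3A, averaged 551 ± 38.0 and 414 ± 192 CPM in siANXA1 and 656 ± 91.9 and 271 ± 124 CPM in siControl. Of 11 genes of histone transcription, 7 were positive and 4 negative (median 0.06), among them YY1 at 166 ± 23.5 CPM in siANXA1 and 146 ± 46.8 CPM in siControl. POU2F1, the octamer factor, averaged 100.3 ± 14.1 CPM in siANXA1 and 99.9 ± 12.2 CPM in siControl, and CDK2 101 ± 4.57 CPM in siANXA1 and 96.6 ± 7.96 CPM in siControl. NPAT, the coactivator of histone gene transcription at histone locus bodies, averaged 67.4 ± 2.08 CPM in siANXA1 and 53.0 ± 10.6 CPM in siControl.

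The list for histone pre-mRNA processing, which cuts the transcript just after the stem-loop, also holds genes outside that step, such as UPF1. It had 28 tested genes, 21 of them positive and 7 negative with a median log2 fold change of 0.20. Its genes with the highest CPM, SNRPB, SNRPG and UPF1, averaged 327 ± 5.97, 300 ± 26.5 and 263 ± 31.2 CPM in siANXA1 and 271 ± 18.3, 206 ± 15.4 and 213 ± 32.0 CPM in siControl. SLBP, which binds the stem-loop, was at 181, 106 and 198 CPM in siANXA1 and 115, 125 and 187 CPM in siControl, where siANXA1 2, the library highest for 23 of the 51 tested histone genes, had the lowest SLBP. The 28 histone chaperones divided into 12 positive and 16 negative (median -0.007), and NPM1, SET and NAP1L1 averaged 1148 ± 529, 805 ± 26.8 and 946 ± 282 CPM in siANXA1 and 1987 ± 486, 1205 ± 194 and 868 ± 80.04 CPM in siControl. Of 36 S phase genes 26 were positive and 10 negative, with a median of 0.10. MCM7, MCM4 and CCNA2 averaged 581 ± 34.9, 523 ± 29.4 and 395 ± 2.65 CPM in siANXA1 and 573 ± 78.5, 478 ± 181 and 394 ± 60.3 CPM in siControl. Summed, S phase genes were at 6840, 5955 and 6860 CPM in siANXA1 and 5391, 5535 and 7531 CPM in siControl: siControl 3 was the highest library for these, and siANXA1 2 the lowest of its group.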

How the data were processed

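RNA-seq of 6 libraries (3 siANXA1, 3 siControl, groups and replicate numbers from the titles) was used. The deposited values are estimated counts of transcripts, as whole numbers without normalization; that they are estimates was read from the values. Which aligner and counting tool made them, and with what strand setting, is not given in the sources used here. As a build, the submitters' processing notes name mm10, of the mouse, whereas the annotation deposited is human, and its transcripts were found in GENCODE release 29 on GRCh38. Rows without a gene held 16.9% to 17.7% of a library's counts and stayed out of library sizes and tests.

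Counts summed per gene were compared between groups with edgeR 4.0.16 under R 4.3.3 (settings: filterByExpr, TMM, robust glmQLFit, glmQLFTest, group as the only term, two-sided, Benjamini-Hochberg over 17947 genes, adjusted p under 0.05). The script was tested on simulated data. There edgeR found 3 of 67 genes made to differ 2-fold, 30 of 67 at 4-fold and 51 of 66 at 8-fold. The lack of a call is therefore no sign that a gene stayed level. Values are CPM as mean ± SD over 3 libraries. TPM were computed from the counts and transcript lengths. Alternatives were 3 scalings, other filters, DESeq2 1.42.0, limma-voom (limma 3.58.1), other transcript choices, a replicate block, and each library left out; a covariate for the side of the first principal component and DESeq2 on the genes that passed the edgeR filter were added after the data were seen. Figures were drawn with matplotlib 3.10.9.

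Members and lists were chosen with earlier results of these data known. Named were ANXA1, members with a mean of 1 CPM or more (in full from 5 CPM), members called by edgeR or DESeq2, and the 3 genes with the highest mean CPM of each other list; NPAT, SLBP, HIST1H4B and other members under 1 CPM were named after their values were seen. The labels do not call replicates separate cultures, so p-values measure a spread between samples that may be technical. With 3 against 3 libraries an exact permutation test cannot go below p = 0.1, and none was run on the sums.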

Additional observations from a re-analysis of the deposited data

How the results depend on the processing

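Over all genes edgeR called 2; the count was 162 with DESeq2, 258 with DESeq2 on the genes that passed the edgeR filter, 1 with the most abundant transcript per gene, 5 with the side of the first principal component as a term, and 0 to 7 with 1 library left out. With the replicate number as a block it was 0, and the members' median log2 fold change was 0.42 against 0.40. Same-numbered libraries had deviations from their group means that correlated at -0.11, 0.26 and 0.26, so the numbers were not taken as a pairing. Members called higher were 1 with DESeq2 and 2 with DESeq2 on the filtered genes (HIST1H1B and HIST1H3D), and 0 in the other fits; members called lower were 0 in every fit. Members apart and lower in siANXA1 were 3 without a filter, with scaling factors recomputed (5.97% of all genes), and 0 to 6 with 1 library left out (9.52% to 23.0% of all genes). The median over the tested members ran from 0.25, without siANXA1 2, to 0.43. ANXA1 stayed lower in every fit, with an adjusted p from 1.41e-17 (DESeq2 on the filtered genes) to 0.392 (edgeR without siANXA1 3).

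For the 30 members of 5 CPM or more, 494 of 530 alternative values kept sign and side of the threshold and 35 changed sign, over 14 members; none of the values that changed sign passed a threshold. With the side of the first principal component as a term, the log2 fold change was 0.19 for HIST3H2A, 0.077 for HIST1H2BC, 0.13 for HIST1H2AE, 0.029 for HIST1H2AI, 0.033 for HIST1H4K, 0.32 for HIST1H2BN and 0.18 for HIST1H2BO. With the replicate block it was -0.082 for HIST1H1E, 0.018 for HIST1H2BN and 0.0068 for HIST1H2BO. It was -0.49 for HIST1H4H with the most abundant transcript and -0.019 for HIST1H4J with upper quartile scaling. With 1 library left out it ran as follows: -0.13 to 0.75 for HIST2H4A, -0.37 to 0.073 for HIST3H2A, -0.021 to 1.34 for HIST3H2BB, -0.33 to 0.042 for HIST1H2BC, -0.36 to 1.28 for HIST1H1E, -0.13 to 0.0078 for HIST1H2BD, -0.0503 to 0.28 for HIST1H4H, -0.17 to 0.32 for HIST1H3H, -0.15 to 0.17 for HIST1H4J, -0.32 to 0.23 for HIST1H2BN and -0.19 to 0.13 for HIST1H2BO. The cause was not tested. Estimated counts of short, similar genes are uncertain in a way that no test here sees, and members under 1 CPM rest on few counts.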

Other observations

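Histone pseudogenes lie among the members and were not counted with them. Of 19 pseudogenes with HIST names, 2 had a mean of 1 CPM or more, both H2B genes of the HIST2 cluster. HIST2H2BC had 65.3, 46.9 and 66.1 CPM in siANXA1 and 52.3, 52.2 and 61.2 CPM in siControl (log2 fold change 0.11, edgeR adjusted p = 0.874). HIST2H2BD had 34.0, 24.5 and 36.4 CPM in siANXA1 and 22.3, 21.8 and 29.3 CPM in siControl (log2 fold change 0.37, edgeR adjusted p = 0.686). In either gene siANXA1 2 was the lowest of its group, and siControl 3 the highest of its group.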
